A study of Mus musculus with 12 samples.

Results

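The nuclear genes of respiratory complexes II to V were examined in skeletal muscle of wild-type and PTRF knockout mice. PTRF, now called cavin 1 and encoded by Cavin1, coats caveolae, small pits of the plasma membrane. The genes were taken by symbol: Sdha, Sdhb, Sdhc, Sdhd and Cyc1, and every symbol beginning with Uqcr, Cox4, Cox5, Cox6, Cox7, Cox8 or Atp5, with a mean of at least 1 TPM over the 6 distinct libraries. TPM is the length-normalised share of a gene in the transcripts of a library. Of the 21936 genes listed, 50 matched by symbol and 46 reached that level, 4 of complex II, 9 of complex III, 16 of complex IV and 17 of complex V. Just above the threshold lay Cox6b2, the testis form of subunit 6B, at a mean of 1.14 TPM, and Cox4i2 at 4.45 TPM. Just below it lay Cox5b-ps at 0.143 TPM and Cox7b2 at 0.121 TPM, while Cox8c and a second Atp5o identifier were listed at 0 in every library. The 46 genes lie on 18 chromosomes, and no chromosome carries more than 6 of them.

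Poly(A) RNA came from C57BL/6N mice aged 3 months, either wild type and labelled normal or PTRF knockout and labelled with muscular dystrophy. The labels list 12 samples, 3 for each genotype in soleus and in quadriceps. The quadriceps samples repeat the soleus values exactly, with a largest difference of 0 TPM, so the data are 3 wild-type and 3 knockout libraries whose muscle of origin is unknown. The labels do not say whether the knockout is confined to muscle, or whether each library is a different animal, so p-values reflect the spread between 3 libraries a group, which may be technical.

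The respiratory chain passes electrons from succinate (complex II) and from NADH through ubiquinol, complex III, cytochrome c and complex IV to oxygen, and complex V, the ATP synthase, uses the resulting proton gradient to make ATP. Complex II is encoded by nuclear genes alone, whereas complexes III, IV and V also contain subunits encoded by the mitochondrial genome. Skeletal muscle is rich in these complexes, and several complex IV subunits exist in a form of heart and skeletal muscle and a form found in most tissues.

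Promoter sequence is shown for a muscle and ubiquitous pair of complex IV, Cox7a1 and Cox7a2, and for a pair of complex V paralogs, Atp5g3 and Atp5g1. In each pair the first gene passed the test on the deposited scale and the other did not. On the trimmed-mean and nuclear scales described below, Cox7a2 and Atp5g1 were called lower as well. The stretches lie before the annotated gene, from RefSeq windows on GRCm38.p6, and run 5′ to 3′ in the direction of the gene. They are chr7:30183921-30184143 on the plus strand (Cox7a1), chr9:79759879-79760103 on the minus strand (Cox7a2), chr2:73911327-73911576 on the minus strand (Atp5g3) and chr11:96075671-96075881 on the minus strand (Atp5g1). No other annotated gene overlaps them. Capitals mark the letters of a searched motif: TGACCTTGA in Atp5g3 is the reverse complement of the ERR site TCAAGGTCA and begins 52 bases before the start, and GGGCGG in Cox7a2 is the SP1 motif. The Cox7a1 and Atp5g1 stretches hold none of the 5 motifs.
Cox7a1: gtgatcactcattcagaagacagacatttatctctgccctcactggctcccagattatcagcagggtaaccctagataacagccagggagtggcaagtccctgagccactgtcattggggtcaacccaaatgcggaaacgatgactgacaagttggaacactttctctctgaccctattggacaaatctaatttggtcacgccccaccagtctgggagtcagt
Cox7a2: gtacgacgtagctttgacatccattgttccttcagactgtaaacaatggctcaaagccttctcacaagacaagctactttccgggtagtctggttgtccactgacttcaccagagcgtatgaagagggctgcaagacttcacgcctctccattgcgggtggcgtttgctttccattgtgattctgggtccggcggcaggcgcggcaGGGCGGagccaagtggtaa
Atp5g3: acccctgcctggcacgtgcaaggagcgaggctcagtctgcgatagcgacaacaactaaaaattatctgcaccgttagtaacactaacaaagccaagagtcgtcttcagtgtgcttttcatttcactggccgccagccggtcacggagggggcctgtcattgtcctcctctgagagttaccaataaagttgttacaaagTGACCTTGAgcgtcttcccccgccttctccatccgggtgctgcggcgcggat
Atp5g1: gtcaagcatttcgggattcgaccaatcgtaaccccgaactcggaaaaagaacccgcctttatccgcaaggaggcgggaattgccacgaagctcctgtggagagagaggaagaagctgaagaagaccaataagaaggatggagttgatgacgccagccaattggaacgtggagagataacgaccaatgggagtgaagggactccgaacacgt

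Windows from 250 bases before to 50 after the start were found for 35 of the 46 genes (38 windows) and were searched on both strands. The NRF1 core was in 26.3% of these windows and 4.60% of all 32851 promoter windows. The ETS/GABP core CCGGAAG was in 34.2% against 8.86%, the YY1 core AAGATGGCG in 5.26% against 1.40%, and the ERR site in 5.26% (Atp5g3 and Sdhd) against 0.423%. SP1 letters were about as frequent as in all windows, at 34.2% against 35.7%. NRF1, GABP and ERR are factors known to drive nuclear genes of the respiratory chain. No match of one motif overlapped a match of another in the windows of the 46 genes. NRF1 letters were present in 3 of the 9 matched genes called lower in the knockout on the deposited scale and in 7 of the other 26. ETS/GABP letters were in 3 of 9 and 10 of 26.

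Cavin1 transcripts measured 45.2, 40.0 and 42.2 TPM in the wild-type libraries and 0.284, 0.0905 and 0.0254 TPM in the knockout libraries, 0.314% of the wild-type mean (limma adjusted p = 3.1e-09). Library totals ran from 843194 to 872482 TPM, and the depth of sequencing is not known. Mitochondrially encoded transcripts made up 52.3, 51.1 and 43.0% of the TPM in wild type and 39.0, 45.7 and 42.2% in knockout. Markers of skeletal muscle fibres were abundant in every library, at 33310 to 37310 TPM summed over 9 genes in wild type and 36841 to 43227 TPM in knockout, with Myh4 called higher and none lower on the deposited scale. After the trimmed-mean rescaling described below, Mb was also called lower (log2 fold change -0.57, limma adjusted p = 0.0498). Wild-type library 2 stood apart in Myh4, the fast type 2B myosin, at 194 TPM against 6.43 and 4.21 TPM in the other two, and the knockout libraries held 238, 580 and 346 TPM. The 8 macrophage markers, all higher in the knockout, summed to 30.9 to 36.8 TPM in wild type and 147 to 184 TPM in knockout, and the 6 fibroblast markers, all higher, to 197 to 202 and 487 to 618 TPM. Of 4 endothelial markers, 3 were higher (2 after trimmed-mean rescaling) and Kdr lower, with sums of 61.0 to 69.1 and 119 to 136 TPM. These marker calls are to be read beside those of all genes, of which limma called 36.3% higher and 2.92% lower with the deposited values. With the trimmed-mean values the shares were 15.1% and 12.7%. Adipocyte markers gave no call among 4 tested, with sums of 383 to 508 and 459 to 539 TPM. The 3 brown-fat markers summed to 5.56 to 7.16 TPM in wild type and 6.18 to 10.1 TPM in knockout, with Ucp1 at 0 in every library. The 4 cardiomyocyte markers summed to 3.27 to 9.34 and 6.26 to 11.1 TPM, with the atrial gene Myl7 at 0 in every library. In each of these lists only 1 gene was tested, and it was not called. The part of these cell types, of fibre type and of the mitochondrial share in the results that follow was not tested.

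The knockout libraries carried a smaller share of transcripts for complexes II to V. Together the 46 genes made up 8.73, 9.52 and 9.91% of the TPM of nuclear genes in wild type and 5.92, 7.31 and 6.94% in knockout, or 9.39 ± 0.604% against 6.72 ± 0.722% (SD, n = 3 each). The 2 genotypes did not overlap in this share. In all transcripts, mitochondrial ones included, their sum was 40863 ± 6463 TPM in the wild-type libraries and 33338 ± 1885 TPM in those of the knockout. In such bulk libraries, fewer muscle fibres and less of these transcripts per fibre cannot be told apart. Of the 100 most abundant nuclear genes, 26 belonged to this group.

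**Figure D1:**
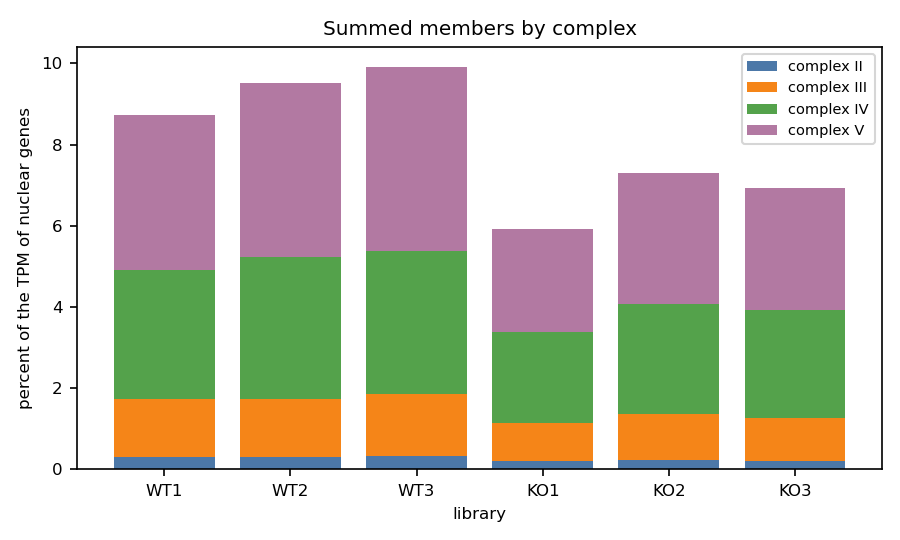
Summed TPM of the genes of each complex as a percentage of the TPM of all nuclear genes, one stacked bar per library (WT1 to WT3 wild type, KO1 to KO3 knockout). The 3 knockout bars reach 5.92 to 7.31% and the 3 wild-type bars 8.73 to 9.91%.

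By complex, the share of nuclear TPM was 0.309 ± 0.0184% in wild type and 0.207 ± 0.0233% in knockout for complex II. Complex III had 1.46 ± 0.0477% and 1.05 ± 0.0925%, complex IV 3.397 ± 0.186% and 2.53 ± 0.257%, and complex V 4.21 ± 0.371% and 2.93 ± 0.359% (SD, n = 3 each). All 4 shares were lower in each knockout library than in any wild-type library. In all transcripts, mitochondrial ones included, the complex IV sums overlapped, with 12907.5 TPM in wild-type library 1 and 13402 TPM in knockout library 3. The sums of complexes II, III and V did not overlap on that scale. Complex V was closest, at 15434 and 15249 TPM in those libraries.

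Gene by gene, 11 of the 46 fell in the knockout on the deposited scale and 1, Cox4i2, rose (limma on log2(TPM + 1), adjusted p under 0.05 over 11056 genes). Among all genes tested, 2.92% were called lower and 36.3% higher. The genes that fell were Sdhd of complex II, Uqcrfs1, Uqcrc1 and Uqcrc2 of complex III, Cox7a1 and Cox7b of complex IV, and Atp5g3, Atp5a1, Atp5j, Atp5md and Atp5pb of complex V. The median log2 fold change over the 46 genes was -0.23, beside 0.33 over all genes, and 42 of the 46 were below 0, beside 16.0% of all genes. All 3 knockout values lay below all 3 wild-type values for 22 genes (4.83% of all genes), above them for Cox4i2 alone (48.7% of all genes), and the groups overlapped for 23. All 46 genes passed the filter on low values.

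These counts depend on the scale, since TPM is a share of each library and the deposited values of most genes were higher in the knockout. A trimmed-mean rescaling drops the highest and lowest 30% of gene ratios and 5% of levels, and sets the libraries level on the remaining genes. It takes the typical gene as unchanged, and it lowered the median over all genes by 0.32 to 0.01. On it, 36 of 45 tested genes were lower and none higher (12.7% and 15.1% of all genes; no gene was higher at an unadjusted p under 0.05 either), with a median of -0.62. Of the 45, 44 had a log2 fold change below 0 (49.1% of all genes), and 38 had every knockout value below every wild-type value (20.7%). On a scale of nuclear genes alone, without mitochondrial transcripts, 30 of 45 were lower and none higher (6.91% and 23.9% of all genes). Again none was higher at an unadjusted p under 0.05. The median was -0.45 beside 0.16 over all genes, and 34 had every knockout value below every wild-type value (11.1%). Quantile normalization gave 21 of 46 lower (13.1% of all genes) and none higher (12.4%; none at an unadjusted p under 0.05), with a median of -0.36 beside -0.04 and all 46 below 0 (55.3%). Of the genes called lower in the whole table and those called higher, the higher ones made up 92.6% as deposited, 54.4% after trimmed-mean rescaling, 77.6% on the nuclear scale and 48.6% after quantile normalization. The 11 genes that fell on the deposited scale were all called on the trimmed-mean and nuclear scales, and all but Atp5j after quantile normalization.

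The deposited-scale calls also rested on single libraries. Without knockout library 1 none of the 11 stayed lower by limma (adjusted p = 0.0504 to 0.137), and 10 of the 46 genes were lower at an unadjusted p under 0.05. Leaving out wild-type library 2 kept Uqcrc1 and Uqcrfs1, and leaving out knockout library 3 kept Uqcrc1 and Atp5g3. With wild-type library 3 left out 4 of the 11 stayed, and with wild-type library 1 left out 7. All 11 log2 fold changes remained below 0 in each case. On the trimmed-mean scale, leaving out 1 library at a time gave 27 to 35 genes lower. On the nuclear scale the same gave 16 to 32, with the fewest when wild-type library 3 was left out and 19 for wild-type library 2, knockout library 1 or knockout library 3. Wild-type library 3 had the highest wild-type value for 43 of the 46 genes, and 30 on the nuclear scale. Knockout library 1 was below every wild-type library in 32 genes, knockout library 2 in 30 and knockout library 3 in 25.

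**Figure D2:**
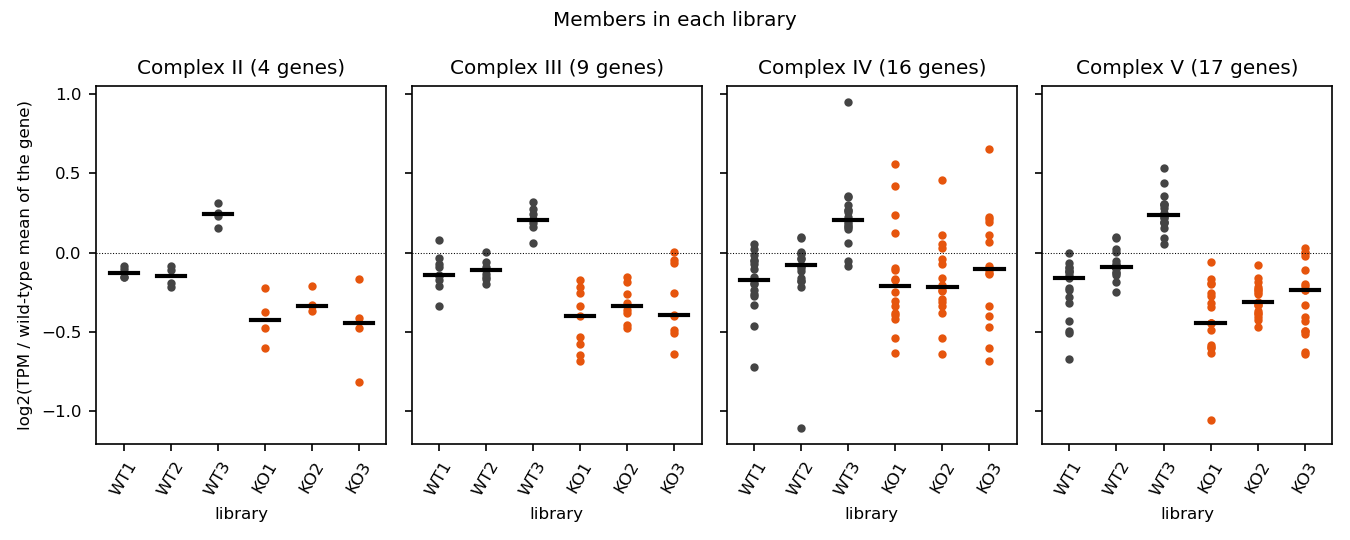
Level of each gene in each library as log2 of its TPM over its own wild-type mean, one panel per complex, with a bar at the median of the genes in that library. The bar of wild-type library 3 is the highest in each panel, and complex IV has the widest spread.

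**Figure D3:**
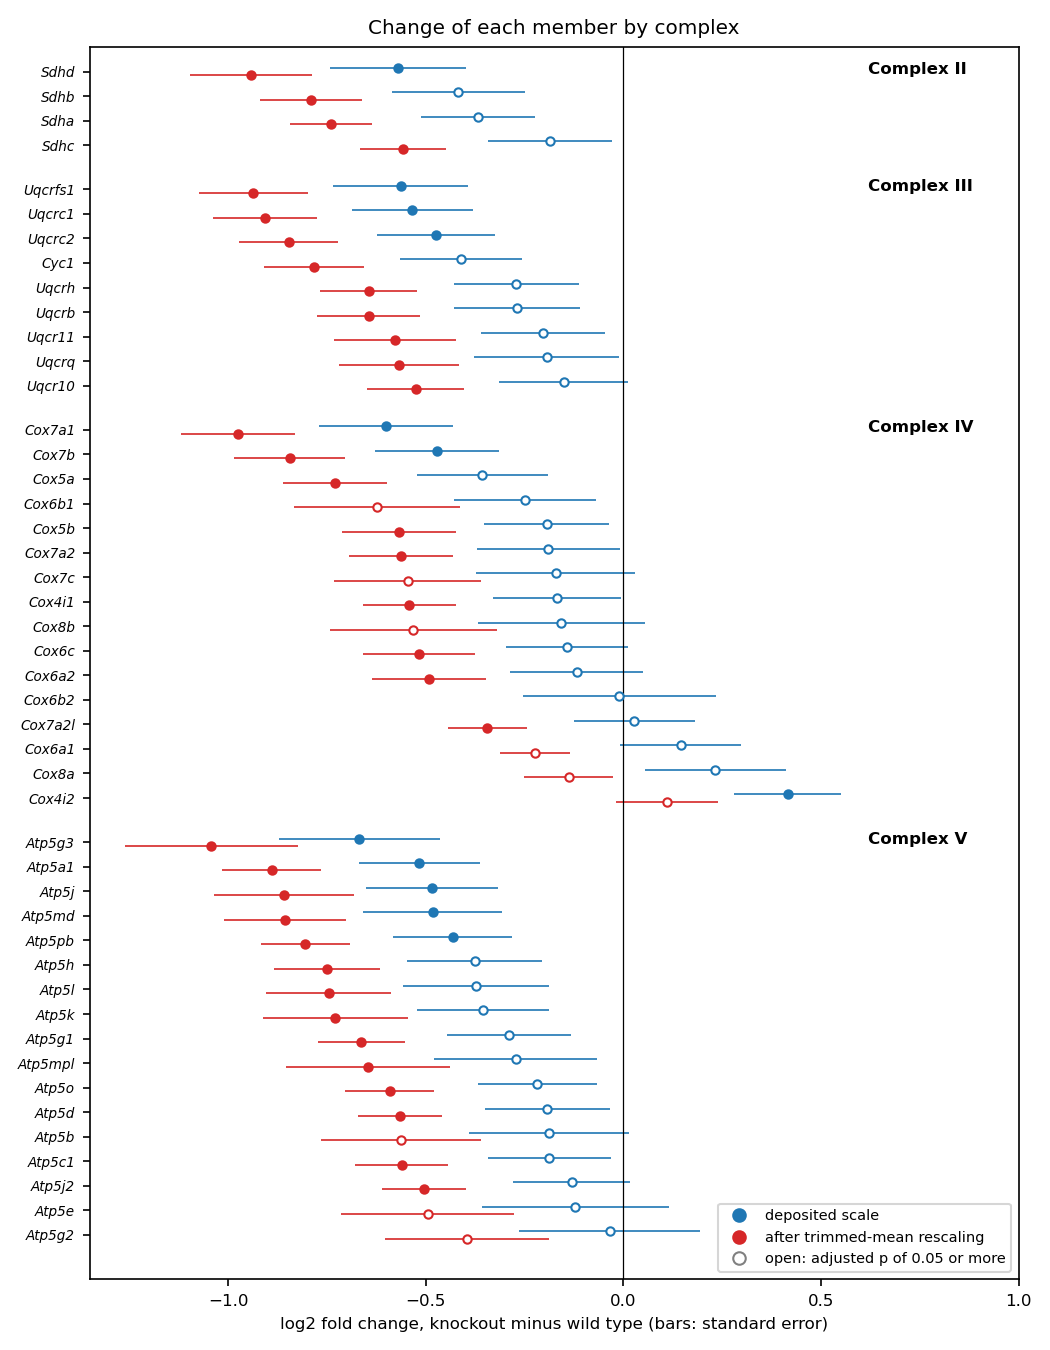
Log2 fold change of each gene, knockout minus wild type, with its standard error, as deposited (blue) and after trimmed-mean rescaling (red). Filled points pass an adjusted p of 0.05: 11 lower and Cox4i2 higher in blue, and 36 lower in red. Cox6b2 has no red point because it did not pass the filter on that scale.

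Complex II, succinate dehydrogenase, oxidises succinate in the tricarboxylic acid cycle and reduces ubiquinone, and 1 of its 4 genes, Sdhd, fell as deposited. All 4 were lower after trimmed-mean rescaling, on the nuclear scale and after quantile normalization (12.7%, 6.91% and 13.1% of all genes). As deposited, 2.92% of all genes fell. Sdhd (chromosome 9:50596357-50603812), a membrane anchor, measured 213, 220 and 278 TPM in wild type and 156, 188 and 135 TPM in knockout. Its groups did not overlap, and its log2 fold change was -0.57 (SE 0.17, limma adjusted p = 0.0225, 0.0030 to 0.103 over 16 alternative settings).

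Sdhb, the iron-sulphur subunit, measured 428, 410 and 591 TPM in wild type and 343, 369 and 344 TPM in knockout. Sdha, the flavoprotein that binds succinate, measured 346, 346 and 408 TPM and 283, 291 and 276 TPM. For both, every knockout library was below every wild-type library, but neither passed (log2 fold changes -0.42 and -0.37, limma adjusted p = 0.0679 and 0.0618). Sdhc, the second anchor, had 248, 233 and 316 TPM and 228, 229 and 237 TPM, with overlapping groups and a log2 fold change of -0.19 (adjusted p = 0.345).

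Complex III, the cytochrome bc1 complex, takes electrons from ubiquinol and hands them to cytochrome c. Its 9 genes had log2 fold changes from -0.56 to -0.15 and a median of -0.27. The 3 that fell were Uqcrfs1 and the core proteins Uqcrc1 and Uqcrc2. All 9 were lower after trimmed-mean rescaling, 7 on the nuclear scale and 5 after quantile normalization (12.7%, 6.91% and 13.1% of all genes). As deposited, 2.92% of all genes fell.

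Uqcrfs1 (chromosome 13:30540308-30545362), the Rieske iron-sulphur protein, measured 356, 367 and 514 TPM in wild type and 264, 296 and 265 TPM in knockout. It had the lowest fold change of the complex, a log2 value of -0.56 (SE 0.17, limma adjusted p = 0.0234, 0.0020 to 0.0943 over the alternatives). Uqcrc1 (chromosome 9:108936633-108949623) measured 415, 410 and 504 TPM and 276, 324 and 315 TPM, without overlap. Its log2 fold change of -0.53 (SE 0.15, adjusted p = 0.0179 by limma, 0.0019 to 0.109 over the alternatives) had the smallest adjusted p of the complex. Uqcrc2 stood at 71.8% of its wild-type level (log2 fold change -0.47, limma adjusted p = 0.0268).

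Cyc1, the cytochrome c1 haem subunit, measured 327, 292 and 385 TPM in wild type and 232, 264 and 254 TPM in knockout. Its groups did not overlap, and the log2 fold change of -0.41 lay just outside the threshold (limma adjusted p = 0.0541). The 5 small accessory subunits Uqcrh, Uqcrb, Uqcr11, Uqcrq and Uqcr10 retained 82.3 to 89.9% of the wild-type level, and none passed on the deposited scale. Uqcr10 was the nearest to no change, with 785, 815 and 1005 TPM in wild type and 772, 698 and 871 TPM in knockout, which overlapped (log2 fold change -0.15, adjusted p = 0.459). The 4 core and catalytic subunits stood at 66.7 to 74.8%, below the range of the accessory ones, a difference that was not tested.

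Complex IV, cytochrome c oxidase, reduces oxygen to water, and its catalytic core of 3 subunits is encoded by the mitochondrial genome. Its 16 nuclear genes spread the most, from a log2 fold change of -0.60 for Cox7a1 to 0.42 for Cox4i2, with a median of -0.16. Cox7a1 and Cox7b fell, Cox4i2 rose, and 13 did not pass on the deposited scale (2.92% of all genes fell and 36.3% rose). There were 9 of 15 lower after trimmed-mean rescaling, 6 of 15 on the nuclear scale and 3 of 16 after quantile normalization. The shares of all genes were 12.7%, 6.91% and 13.1%. None was higher on any of these 3 scales (nor at an unadjusted p under 0.05), beside 15.1%, 23.9% and 12.4% of all genes called higher. Cox5a, a subunit on the matrix side, measured 1034, 1149 and 1466 TPM in wild type and 936, 963 and 920.5 TPM in knockout. These did not overlap, with a log2 fold change of -0.36 (limma adjusted p = 0.103). Cox7b, a small subunit known to be needed for assembly of the complex, stood at 72.2% of wild type (log2 fold change -0.47, limma adjusted p = 0.0338). The other genes outside the isoform pairs, Cox5b, Cox6b1, Cox6b2, Cox6c and Cox7c, overlapped between genotypes on the deposited scale and stood at 85.4 to 90.3% of wild type.

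The muscle forms of subunits 6A, 7A and 8 were much more abundant than their ubiquitous partners in both genotypes. Of the TPM of each pair, Cox6a2 made up 96.4 to 96.9% in wild type and 95.8 to 96.4% in knockout, and Cox8b made up 96.0 to 96.9% and 93.5 to 96.9%. Cox7a1 made up 82.2 to 84.4% in wild type and 77.5 to 79.6% in knockout, without overlap.

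Cox7a1 (chromosome 7:30184144-30186078), the heart and muscle form of subunit 7A whose promoter is printed above, measured 1302, 1531 and 1895 TPM in wild type and 1018, 1084 and 980 TPM in knockout. Every knockout library was below every wild-type library, and its log2 fold change was -0.60 (SE 0.17, limma adjusted p = 0.0172, 0.0021 to 0.116 over the alternatives). Its ubiquitous counterpart Cox7a2 measured 267, 282 and 410 TPM and 296, 278 and 253 TPM. As deposited the groups overlapped, with a log2 fold change of -0.19 (limma adjusted p = 0.401). Wild-type library 3 was the high one, and without it the deposited-scale log2 fold change of Cox7a2 was 0.0018. Cox7a2 was lower, without overlap, after trimmed-mean rescaling and on the nuclear scale (-0.56 and -0.39, limma adjusted p = 0.0143 and 0.0476). It did not pass after quantile normalization (-0.35, limma adjusted p = 0.0545). The ratio of Cox7a1 to Cox7a2 was 4.87, 5.42 and 4.63 in wild type and 3.44, 3.90 and 3.88 in knockout. On the log2 scale the ratio was lower by 0.41 (-0.46 to -0.35 with 1 library left out), with p = 0.1 in a two-sided exact permutation test, the smallest p that 3 against 3 can give, and 0.3 after adjustment over the 6 ratios compared. Such a ratio is the same on the deposited, trimmed-mean and nuclear scales. Cox7a2l, a relative of these subunits that helps to join complexes III and IV into supercomplexes, measured 142, 120 and 157 TPM and 152, 143 and 131 TPM, with a log2 fold change of 0.03 that became -0.34 after trimmed-mean rescaling (adjusted p = 0.895 and 0.0352).

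Cox6a2, the muscle form of subunit 6A, measured 1780, 1581 and 1785 TPM in wild type and 1607, 1320 and 1852 TPM in knockout. Cox6a1, the ubiquitous form, measured 56.9, 53.0 and 67.4 TPM and 69.7, 57.6 and 68.9 TPM. As deposited, both pairs of groups overlapped and neither gene passed (log2 fold changes -0.12 and 0.15, limma adjusted p = 0.578 and 0.450). After trimmed-mean rescaling neither pair of groups overlapped, and Cox6a2 was lower (-0.49, limma adjusted p = 0.0362). Cox6a1 was at -0.22 on that scale and did not pass (limma adjusted p = 0.0996). Neither gene was called on the nuclear scale or after quantile normalization. Their ratio was 31.3, 29.8 and 26.5 in wild type and 23.1, 22.9 and 26.9 in knockout, a log2 difference of -0.27 with overlapping groups (exact permutation p = 0.2, adjusted 0.3).

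Cox8b, the muscle form of subunit 8, measured 2172, 2659 and 3350 TPM in wild type and 2045, 2193 and 3113 TPM in knockout, and Cox8a, its ubiquitous form, 91.6, 84.9 and 112 TPM and 142, 99.8 and 101 TPM. The genotypes overlapped for both genes, and neither passed (log2 fold changes -0.16 and 0.23, limma adjusted p = 0.554 and 0.302). After trimmed-mean rescaling the Cox8b and Cox8a values were -0.53 and -0.14, and neither passed (limma adjusted p = 0.0994 and 0.409). The Cox8b to Cox8a ratio was 23.7, 31.3 and 29.8 in wild type and 14.4, 22.0 and 30.9 in knockout, with knockout library 1 the lowest. The log2 difference of -0.39 did not pass (exact permutation p = 0.3, adjusted 0.36) and ran from -0.66 to -0.11 with 1 library left out.

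Cox4i1, the general form of subunit 4, measured 880, 941 and 1199 TPM in wild type and 898, 850 and 917 TPM in knockout. These overlapped as deposited (log2 fold change -0.17, limma adjusted p = 0.408). Cox4i1 was lower, without overlap, after trimmed-mean rescaling and on the nuclear scale (-0.54 and -0.37, limma adjusted p = 0.0112 and 0.0331). It did not pass after quantile normalization (limma adjusted p = 0.125). Cox4i2, a form known from lung and from cells at low oxygen, measured 3.54, 3.93 and 3.53 TPM and 4.90, 5.04 and 5.75 TPM. It was the only one of the 46 genes called higher, with a log2 fold change of 0.42 (SE 0.14, adjusted p = 0.0314, 0.02997 to 0.982 over 15 alternatives). That call was lost after trimmed-mean rescaling (0.11), on the nuclear scale (0.25), after quantile normalization (-0.01), with no filter, and with any one of the wild-type libraries or knockout library 3 left out (adjusted p = 0.0593 to 0.123). Cox4i2 amounted to 0.403, 0.417 and 0.294% of Cox4i1 in wild type and 0.545, 0.593 and 0.628% in knockout, without overlap. The log2 ratio was higher by 0.68 (0.52 to 0.77 with 1 library left out) with p = 0.1, the smallest that the exact permutation test allows, and 0.3 after adjustment.

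**Figure D4:**
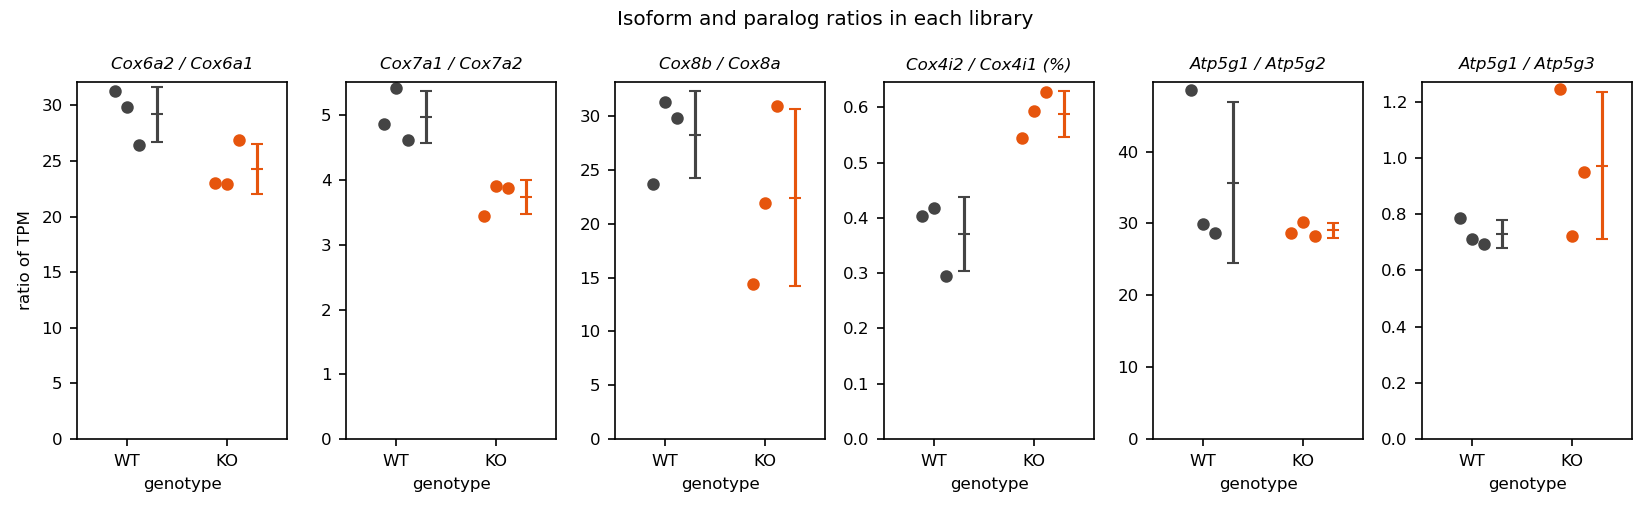
Ratio of TPM within each isoform or paralog pair in each library (points), with the mean and SD of 3 libraries beside them. Cox4i2 to Cox4i1 is given in percent. Only Cox7a1 to Cox7a2 and Cox4i2 to Cox4i1 have no overlap between wild type (grey) and knockout (orange) among the 6 ratios.

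Complex V, the ATP synthase, joins a catalytic F1 head to a membrane rotor by a central and a peripheral stalk. All 17 of its genes had a log2 fold change below 0 as deposited (16.0% of all genes), from -0.67 to -0.03 with a median of -0.29. Of the 17, 5 fell on that scale (2.92% of all genes). On the trimmed-mean scale 14 were lower, on the nuclear scale 13, and after quantile normalization 9 (12.7%, 6.91% and 13.1% of all genes). Every deposited knockout value was below every wild-type value for 10 of the 17 (4.83% of all genes).

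In the F1 head, Atp5a1 (chromosome 18:77773729-77782869), which encodes the alpha subunit, measured 972, 988 and 1202 TPM in wild type and 694, 760 and 747 TPM in knockout. The groups did not overlap, and the log2 fold change of -0.52 (SE 0.15, adjusted p = 0.0206 by limma, 0.0017 to 0.128 over the alternatives) had the smallest adjusted p of the complex. Atp5b, the catalytic beta subunit and the most abundant of the 46 genes, measured 2537, 3657 and 4070 TPM and 2695, 2718 and 3487 TPM. These overlapped, and its log2 fold change was -0.19 (adjusted p = 0.459). Atp5b passed in none of the 16 alternatives, with adjusted p from 0.0730 to 0.896.

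The 3 paralogs Atp5g1, Atp5g2 and Atp5g3 encode the c subunit of the membrane ring, each with its own import sequence. Atp5g3 (chromosome 2:73908447-73911326), whose promoter with the ERR letters is printed above, measured 1146, 1262 and 1644 TPM in wild type and 651, 1039 and 874 TPM in knockout. Knockout library 1 was the lowest, the groups did not overlap, and the log2 fold change of -0.67 (SE 0.20, adjusted p = 0.0234 by limma, 0.0085 to 0.170 over the alternatives) was the lowest of the 46. Atp5g1 measured 901, 896 and 1143 TPM and 810, 750 and 831 TPM, which did not overlap, with a log2 fold change of -0.29 (adjusted p = 0.155). It was lower on the trimmed-mean, nuclear and quantile scales (adjusted p = 0.0032, 0.0082 and 0.0239). Atp5g2, the scarce paralog, measured 18.6, 30.002 and 39.9 TPM and 28.3, 24.8 and 29.4 TPM, overlapped, and had the highest fold change of the complex, a log2 value of -0.03 (adjusted p = 0.910).

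The ratio of Atp5g1 to Atp5g3 was 0.786, 0.710 and 0.695 in wild type and 1.24, 0.722 and 0.951 in knockout. Knockout library 1 was the one library with more Atp5g1 than Atp5g3, and the groups overlapped (log2 difference 0.38, exact permutation p = 0.2, adjusted 0.3). The ratio of Atp5g1 to Atp5g2 was 48.6, 29.9 and 28.7 in wild type and 28.6, 30.2 and 28.2 in knockout, a log2 difference of -0.26 that was -0.01 without wild-type library 1 (exact permutation p = 0.4, also 0.4 after adjustment).

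The 4 peripheral stalk genes, Atp5j, Atp5pb, Atp5h and Atp5o, had no overlap between genotypes and stood at 72.1, 73.8, 76.1 and 85.6% of wild type. Atp5j and Atp5pb fell (log2 fold changes -0.48 and -0.43, limma adjusted p = 0.0390 and 0.0403), Atp5h and Atp5o did not pass on the deposited scale, and all 4 were lower on the trimmed-mean and nuclear scales. The 3 central stalk genes, Atp5c1, Atp5d and Atp5e, overlapped and stood at 86.9 to 88.0% of wild type, with none called on the deposited scale and 2 after trimmed-mean rescaling. Among 5 accessory subunits of the membrane part, Atp5md fell (log2 fold change -0.48, limma adjusted p = 0.0480), and Atp5l, Atp5k, Atp5mpl and Atp5j2 stood at 75.8, 79.0, 80.9 and 91.2% of wild type without a call on the deposited scale. All 5 were lower after trimmed-mean rescaling and 4 on the nuclear scale (12.7% and 6.91% of all genes). As deposited, 2.92% of all genes fell, and 4.83% had every knockout value below every wild-type value.

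The 6 mitochondrially encoded subunits of complexes III to V gave no call by limma on the deposited or trimmed-mean scale. Their log2 fold changes on the deposited scale ran from -0.22 to -0.02, with a median of -0.20 beside -0.23 for the 46 nuclear genes. After trimmed-mean rescaling these medians were -0.57 and -0.62. Within wild type, mt-Co2 ran from 10023 to 24656 TPM and mt-Atp8 from 20212 to 48944 TPM. The summed nuclear genes of complex III amounted to 17.4, 19.2 and 25.2% of mt-Cytb in wild type and 17.8, 16.5 and 18.8% in knockout. For complex IV the nuclear sum was 8.55, 10.1 and 12.5% of the 3 mitochondrial genes in wild type and 9.76, 10.04 and 10.8% in knockout. For complex V it was 14.5, 17.6 and 30.8% of mt-Atp6 and mt-Atp8 in wild type and 19.7, 15.3 and 17.8% in knockout. The genotypes overlapped in all 3, and wild-type library 3 was the highest each time.

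Among 34 assembly factors of complexes II to V, 4 fell (Taco1, Atpaf1, Sco2 and Cmc2) and 2 rose (Uqcc3 and Surf1) on the deposited scale. Of all genes, 2.92% fell and 36.3% rose on that scale. The median of the list was -0.04 in log2, beside 0.33 over all genes. Trimmed-mean rescaling gave 18 lower and 1 higher, Uqcc3 (12.7% and 15.1% of all genes). Taco1, which activates translation of mitochondrial Cox1, measured 25.1, 21.9 and 29.4 TPM in wild type and 17.8, 15.8 and 14.5 TPM in knockout (log2 fold change -0.63, limma adjusted p = 0.0088, 0.00038 to 0.0429 over the alternatives). Uqcc3, an assembly factor of complex III, measured 25.6, 21.7 and 27.7 TPM and 47.5, 37.6 and 42.1 TPM, opposite in sign to the complex III subunits. Its log2 fold change was 0.74 as deposited and 0.38 after trimmed-mean rescaling (limma adjusted p = 0.0034 and 0.0163, at most 0.0492 over the alternatives).

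Of 6 tested subunits and regulators that the symbols leave out, Cycs and Hccs fell and none rose by limma on the deposited scale (2.92% and 36.3% of all genes). Cycs, the cytochrome c that links complexes III and IV, measured 122, 155 and 198 TPM in wild type and 75.5, 104 and 79.4 TPM in knockout (log2 fold change -0.85, adjusted p = 0.0059, 0.0014 to 0.0594 over the alternatives). Hccs attaches haem to cytochrome c. Of 36 nuclear complex I subunits 6 fell and none rose by limma on the deposited scale (2.92% and 36.3% of all genes). Their median was -0.30 in log2, and trimmed-mean rescaling gave 35 lower (12.7% of all genes). Ndufs1, the largest subunit of complex I, measured 209, 233 and 267 TPM in wild type and 138, 178 and 146 TPM in knockout and had the smallest adjusted p of that list (log2 fold change -0.61, limma adjusted p = 0.0117, 0.0025 to 0.103 over the alternatives). Of 15 mitochondrial genes outside the respiratory chain, Slc25a3 and Cs fell and none rose (2.92% and 36.3% of all genes), with a median of -0.19. After trimmed-mean rescaling 12 were lower (12.7% of all genes). Slc25a3, the phosphate carrier that supplies the ATP synthase, measured 922, 956 and 1296 TPM in wild type and 656, 663 and 620 TPM in knockout (log2 fold change -0.69, limma adjusted p = 0.0078, 0.00078 to 0.0449 over the alternatives). No test compared these lists with one another or with complexes II to V.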

How the data were processed

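Poly(A) RNA of 12 labelled samples was sequenced, with TRIzol extraction and NEBNext Ultra libraries, per the labels' protocols. The submitters' processing notes name the builds GRCm38 and mm10, kallisto 0.43.0 and STAR 2.5.3a, with no step given. The deposited values were read as TPM from the values alone, and the authors' counting of near-identical copies is not given in the sources used here. By symbol, 6 processed pseudogenes of Atp5c1, Atp5k, Atp5l and Uqcrh are annotated, so those genes are uncertain. A processed pseudogene named Cox6c2 is also annotated, and Cox5b-ps is among the listed genes. Copies under other names were not searched, so the remaining genes may be uncertain too. TPM keeps no depth, so no counting interval is given.

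Samples with equal values were counted once, and genes absent from a library were set to 0. The test was limma 3.58.1 (R 4.3.3, intensity trend, 4 residual degrees of freedom) on log2(TPM + 1), run on the 11056 genes that reached 1 TPM in 3 or more libraries, with Benjamini-Hochberg adjustment over them and a threshold of 0.05. The pseudocount understates fold changes of low genes such as Cox4i2. Ratios were compared with a two-sided exact permutation test. On simulated data for the knockout comparison (11056 genes), limma recovered 22% of 100 genes set 0.5 apart in log2 and 97% of 100 set 1 apart. No other simulated gene changed, whereas the data gave 323 lower and 4016 higher calls. With more calls the Benjamini-Hochberg threshold is less strict, so these shares do not measure the power of the test in these data. Alternatives were the scales named in the text (30% of ratios and 5% of levels trimmed), other pseudocounts (0.1 and 5) and filters, no trend, the replicate number as a block, a fold change minimum, and libraries left out. Leaving libraries out on the rescaled values was chosen after seeing the data.

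Genes, lists and tests were chosen with earlier results of these data known. Named with values are the isoform pairs, the core subunits, in each complex the lowest and highest fold change and smallest adjusted p, and from each other pathway list the smallest passing adjusted p in each direction, with other names for counts of 5 or fewer; Uqcrc2, Cox7b, Atp5j, Atp5pb and Atp5md are named as called genes. Cell type markers were given as sums. Positions are from GENCODE release 21 for mouse, and the other software was pandas 2.3.3 and numpy 2.4.6 in Python 3.11.15, with matplotlib 3.10.9 for figures. The promoter motifs were searched by exact letters on both strands; the NRF1 core is named without its letters.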

Additional observations from a re-analysis of the deposited data

How the results depend on the processing

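The number of the 46 genes called lower (11) was 21 after quantile normalization, 36 after trimmed-mean rescaling, 30 on the nuclear scale, 3 with no filter and 6 with a minimum of 0.5 on the absolute log2 scale, and ran from 0 to 11 with 1 library left out. With wild-type library 2 and knockout library 1 left out together it was 0 by limma (8 at an unadjusted p under 0.05), 18 on the trimmed-mean scale and 10 on the nuclear scale, where single libraries left out gave 16 to 32. The number called higher (1) was 0 after quantile normalization, trimmed-mean rescaling, the nuclear scale, a filter of 10 TPM, no filter and the fold change minimum, 0 or 1 with 1 library left out, and 0 without both libraries (1 at an unadjusted p under 0.05, and 1 with no filter). Over all genes, the 323 lower and 4016 higher became 1450 and 1373 after quantile normalization, 1391 and 1660 after trimmed-mean rescaling, and 761 and 2635 on the nuclear scale. The higher count was 1616 with a filter of 10 TPM, which tests fewer genes, 2521 to 4561 with 1 library left out and 2002 without both. Apart from these fewer tests, the cause was not tested. limma without the trend called 12 lower, and pseudocounts of 0.1 and 5 called 11 and 10.

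Same-numbered wild-type and knockout libraries did not deviate together (correlations 0.028, -0.0081 and 0.037). With 3 libraries a group, these values cannot tell whether the numbers mark pairs. With the replicate number as a block, 9 genes were lower and 1 higher, and no library correlated best with its own number.

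Log2 fold changes near 0 changed sign in some settings. With 1 library left out, Cox7a2 ran from -0.31 to 0.0018, Cox7c from -0.38 to 0.022, Cox8b from -0.34 to 0.0027, Cox6a2 from -0.23 to 0.010, Cox6b2 from -0.22 to 0.33, Cox7a2l from -0.076 to 0.12, Atp5e from -0.33 to 0.18 and Atp5g2 from -0.32 to 0.21. The highest value came without wild-type library 3, except for Cox6a2, where it came without knockout library 2. Cox6b2 was 0.066 with a pseudocount of 0.1. Cox7a2l was -0.19 after quantile normalization, -0.34 after trimmed-mean rescaling, -0.17 on the nuclear scale and -0.13 without both libraries. Cox6a1 was -0.12, -0.22 and -0.053 on those 3 scales. Cox8a was -0.032 after quantile normalization, -0.14 after trimmed-mean rescaling and -0.017 without both libraries, and Cox4i2 was -0.0057 after quantile normalization.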
